A study of Mus musculus with 2 samples.

Results

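Superoxide and peroxides are removed by a small set of enzymes, of which 10 genes were examined in differentiating mouse erythroid cells: the peroxiredoxins Prdx1 to Prdx6, the glutathione peroxidases Gpx1 and Gpx4, catalase (Cat) and the copper-zinc superoxide dismutase Sod1. They were chosen by name, from their biochemical role, and their Ensembl identifiers were matched to symbols. All 10 were found among the 43346 Ensembl genes of the tables. The cells were G1E-ER4, an immortalized line that grew from Gata1-null mouse cells and carries a GATA1 fusion with the ligand-binding part of the estrogen receptor, which estradiol activates. Polyadenylated RNA was sequenced in paired-end mode after 14 h in 10 nM 17beta-estradiol. The labels describe 2 libraries as biological replicates 1 and 2 of this single condition, and both name the same source sample. The spread between them may therefore be partly technical, and there were no untreated cells to set them against. A single line, in which the fusion protein is not the natural factor, is also the limit of the system as a model of red cell formation.

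Superoxide leaking from respiration and from hemoglobin is turned into hydrogen peroxide by superoxide dismutases, and the peroxide is then removed by catalase, by glutathione peroxidases and by peroxiredoxins. Peroxiredoxins attack peroxide with a reactive cysteine and are recharged mainly by thioredoxin, whereas Gpx1 and Gpx4 carry a selenocysteine, encoded by an in-frame UGA stop codon, and draw on glutathione. Red cells are rich in PRDX2, catalase and GPX1, which guard hemoglobin and the membrane after the nucleus and mitochondria are gone.

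The reactive residue is what these enzymes have in common, and the coding sequence around it shows how the family divides. Below, 45 bases of each principal transcript (the main protein-coding model of GENCODE M21, on GRCm38) are written 5′ to 3′ with the codon of the peroxidatic cysteine, or of the selenocysteine, in capitals. The codons lie at chr4:116691823-116691825 on the plus strand for Prdx1, chr8:84970483-84970485 plus for Prdx2, chr19:60870127-60870129 minus for Prdx3 and chrX:155332460-155332462 minus for Prdx4. Those of Prdx5 (chr19:6907988-6907990) and Prdx6 (chr1:161247368-161247370) are on the minus strand, and those of Gpx1 (chr9:108339451-108339453) and Gpx4 (chr10:80054737-80054739) on the plus strand.
Prdx1: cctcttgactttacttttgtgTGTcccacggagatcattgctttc
Prdx2: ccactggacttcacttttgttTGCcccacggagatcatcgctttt
Prdx3: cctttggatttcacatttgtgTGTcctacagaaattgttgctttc
Prdx4: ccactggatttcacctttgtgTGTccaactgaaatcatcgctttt
Prdx5: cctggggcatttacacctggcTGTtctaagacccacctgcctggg
Prdx6: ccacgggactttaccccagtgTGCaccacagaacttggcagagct
Gpx1: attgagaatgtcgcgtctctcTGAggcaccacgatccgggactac
Gpx4: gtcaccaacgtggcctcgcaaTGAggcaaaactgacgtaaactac

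The 4 peroxiredoxins of the typical 2-cysteine kind, Prdx1 to Prdx4, shared between 32 and 38 of the 45 bases with one another. Prdx5, which has an atypical second cysteine, matched the other 5 at 19 to 21 positions. Prdx6, the 1-cysteine member, matched Prdx1 to Prdx4 at 23 to 26 positions. The reactive codon is number 52 in Prdx1, 51 in Prdx2, 109 in Prdx3 and 127 in Prdx4, where the longer leader is the part that targets the protein to mitochondria (Prdx3) or to the secretory pathway (Prdx4). It is number 96 in Prdx5 and 47 in Prdx6. The selenocysteine codon is number 47 in Gpx1 and 73 in Gpx4.

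All 10 genes were expressed, which here means at least 1 TPM (a level per transcript length, scaled to the same total in each library) in both libraries, and 7 reached 50 TPM in both. Together they held 0.338% of all TPM in replicate 1 and 0.399% in replicate 2. Gpx4 alone made up 52.1% and 54.6% of that, but 43.1% and 27.5% of the counts of the 10 genes. Prdx1 stood at the other end. Their median level was 175 TPM, against 20.3 TPM for the 8062 nuclear protein-coding genes expressed in both libraries. The libraries held 38395462 and 60097369 estimated counts, so a count of 3, taken as the limit of detection, was worth 0.0781 and 0.0499 CPM (counts scaled to a library total of 1e6).

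**Figure D1:**
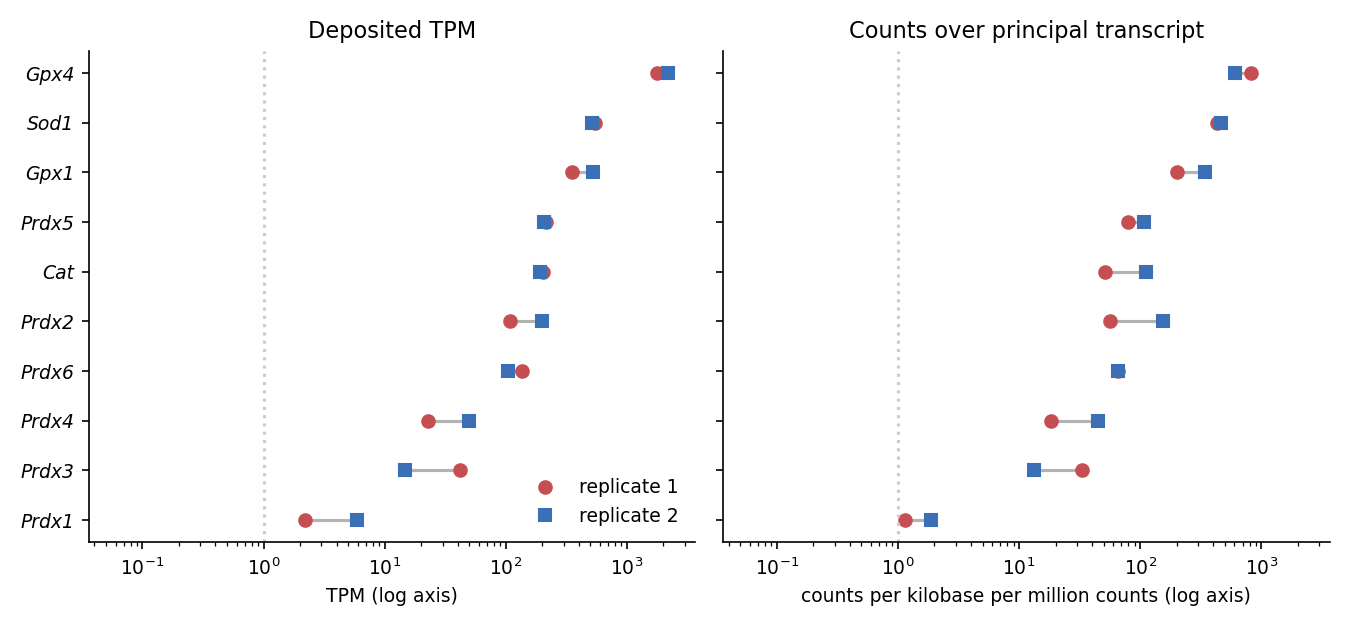
Level of each gene in replicate 1 (circles) and replicate 2 (squares), on log axes, as deposited TPM (left) and as CPM per kilobase of the principal transcript (right). Gpx4 is the highest and Prdx1 the lowest in both panels and both libraries, while Cat and Prdx2 change place in the middle.

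Sod1 makes hydrogen peroxide from superoxide in the cytosol and is thus the entry to the pathway. It was at 541 TPM in replicate 1 and 515 TPM in replicate 2, with a mean of 528 ± 18.6 TPM (SD, n = 2). It lay above 96.8% of the expressed genes. Sod2, the mitochondrial manganese enzyme, was at 50.8 and 36.7 TPM, so Sod1 exceeded it by 3.61 ± 0.28 on the log2 scale of TPM + 0.1 (SD, n = 2), in both libraries. This gap depends on length, because Sod2 has the longer transcripts: in CPM, not divided by length, it was 0.72. Ccs, the chaperone that loads copper into SOD1, was at 16.2 TPM in replicate 1 and 69.4 TPM in replicate 2. The Sod1 to Ccs ratio was 5.05 and 2.89 (log2), a spread too wide for a firm distance.

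Gpx4 reduces lipid hydroperoxides within membranes and is the enzyme that blocks ferroptosis. It was at 1764 TPM in replicate 1 and 2176 TPM in replicate 2, and ranked 62 of 21460 nuclear protein-coding genes. Gpx1, which reduces hydrogen peroxide in the cytosol and mitochondria, was at 350.0 and 527 TPM and lay above 96.2% of expressed genes. Gpx4 was higher than Gpx1 in both libraries, by 2.33 and 2.05 on the log2 scale of TPM + 0.1. In CPM per kilobase of the principal transcript, a scale chosen after seeing the data, the mean difference was 1.43 ± 0.85 (SD, n = 2), and the 2 genes were no longer apart by the rule used here. That rule asks both libraries to give the same direction and the mean log2 ratio to exceed 2 times the range between them.

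Cat, the peroxisomal enzyme that splits hydrogen peroxide without a reductant, was at 202 TPM in replicate 1 and 190 TPM in replicate 2. These values are close together only in TPM. In counts Cat had 4869 and 16378, which is 127 and 273 CPM. The transcripts to which those counts were assigned differed between the libraries, as described below. The log2 ratio of Cat over Gpx1 was -0.80 and -1.47 (TPM + 0.1), lower in both libraries but not by enough for the rule.

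Among the peroxiredoxins, Prdx5 was the highest by mean TPM and Prdx1 the lowest. Prdx1 was lowest on the other scales too, but in mean CPM Prdx6 (147) and Prdx2 (108) were above Prdx5 (104), and per kilobase of the principal transcript Prdx2 (105) was above Prdx5 (93.3). Prdx5, found in mitochondria, peroxisomes and cytosol, was at 216 TPM in replicate 1 and 206 TPM in replicate 2. Prdx2, the main peroxiredoxin of red cells, was at 108 and 199 TPM. Prdx6, which reduces phospholipid hydroperoxides and uses glutathione, was at 135 and 104 TPM. Prdx2 was lower than Gpx1 in both libraries, with a log2 ratio of -1.55 ± 0.20 (TPM + 0.1, SD, n = 2). In CPM the mean was -1.34, lower in both libraries but not by enough for the rule. Per kilobase of the principal transcript it was -1.50, apart by the rule. Against Cat the log2 ratio of Prdx2 in TPM + 0.1 was -0.90 in replicate 1 and 0.06 in replicate 2, so those levels had no stable order on that scale.

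Prdx3 and Prdx4 serve the mitochondrial matrix and the endoplasmic reticulum. Prdx3 was at 42.2 TPM in replicate 1 and 14.6 TPM in replicate 2, while Prdx4 was at 23.0 and 49.4 TPM. Their order therefore turned round between the libraries. Prdx5 was above Prdx3, the other mitochondrial member, by 3.08 ± 1.03 (log2 of TPM + 0.1, SD, n = 2), though by 1.87 in CPM and not by enough for the rule.

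Prdx1 is the closest relative of Prdx2 and an abundant cytosolic enzyme in many tissues. It was at 2.19 TPM in replicate 1 and 5.93 TPM in replicate 2, from 95 and 240 counts. It lay above only 16.5% of the expressed genes. Prdx2 exceeded it by 5.56 and 5.04 on the log2 scale of TPM + 0.1. Per kilobase of the principal transcript the mean difference was 5.99 ± 0.55 (SD, n = 2). In CPM, not divided by length, it was 4.88. The size of the distance thus depends on the scale, but the pair was apart by the rule on each. The log2 ratio of Prdx6 over Prdx1 was 4.99 ± 1.26, and that of Prdx1 over Prdx4 was -3.19 ± 0.21 (SD, n = 2 each), with the same direction in both libraries.

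Prdx1 has many near copies, which matters for how its reads are counted. In GENCODE M21, 5 processed pseudogenes match at least 80% of its coding bases over at least 50% of that sequence, the closest at 98.3% identity. Of these, 3 are in the deposited tables. They held 0 counts in replicate 1 and 3.97 in replicate 2, of which Gm7204 had 3.01. The deposited posterior SD of the Prdx1 count, a measure of reads shared between genes, was 0 and 0.17. No pool of Prdx1 reads was thus visible on its listed copies. Reads left out because they matched too many places cannot be seen in these tables, and their part in the low level was not tested.

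The other copies that were quantified were also nearly empty. Tdpx-ps1, a copy of Prdx2 with 96.3% identity, had 1.11 and 4.04 counts, and Gm8566, a copy of Sod1 with 97.8% identity, had 1 and 6. Prdx6b, a coding relative of Prdx6, had 0 in both libraries. Gpx4 has 2 pseudogenes, the nearer, Gpx4-ps2 on chromosome 10, at 99.6% identity. Neither was among the quantified genes, so neither has a count. The same holds for Gm8238, a copy of Sod1 at 87.7% identity. Whether reads from these copies were counted as Gpx4 or Sod1 was not tested. Prdx3, Prdx4, Prdx5, Gpx1 and Cat had no copy by these limits. Some genes overlap another on the opposite strand: Prdx2 with Rnaseh2a and Junb, Prdx5 with Trmt112 and Sod1 with Scaf4, by 181 to 650 bases. No source used here says whether strand was used in counting, so reads in those stretches could belong to either gene.

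By mean TPM the order ran Gpx4, Sod1, Gpx1, Prdx5, Cat, Prdx2, Prdx6, Prdx4, Prdx3 and Prdx1. By the rule, 2 of the 9 neighbouring steps were apart. These were Gpx4 over Sod1, at 1.89 ± 0.27, and Prdx5 over Cat, at 0.11 ± 0.01 (log2, SD, n = 2 each). The second is a small difference that happens to be alike in both libraries. Per kilobase of the principal transcript neither held, and the one step that did was Gpx1 over Prdx5, at 1.51. Over all 45 possible pairs 31 were apart by TPM, 24 in CPM and 25 per kilobase of the principal transcript. Pairs not apart by TPM included some far from each other in the order, such as Gpx1 and Prdx3, Sod1 and Prdx2, and Prdx3 and Prdx1.

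Most of the Gpx4 TPM was assigned to transcripts annotated as noncoding. They held 91.0% of its TPM in replicate 1 and 81.7% in replicate 2. Gpx4-204, a processed transcript of 879 bases with no annotated coding sequence, held 46.9% in replicate 1 and 0.09% in replicate 2. Gpx4-203, a fragment of 280 bases near the 3′ end that is annotated as a retained intron, held 44.0% and 81.5%. Of its bases, 238 (85.0%) lie in exons of the principal transcript Gpx4-202, and only 42 lie outside them. Gpx4-202, which encodes the 197-codon protein, held 3.14% and 16.8%, and Gpx4-201, a coding form with another first exon, 5.84% and 1.51%.

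The same transcripts had other shares in counts, since Gpx4-203 is so short that each read adds much to its TPM. Its effective length, the number of places a fragment can start, was 133 bases in replicate 1 and 124 in replicate 2. It took 12.3% of the Gpx4 counts in replicate 1 and 40.6% in replicate 2. Gpx4-204 took 72.0% in replicate 1 and 0.253% in replicate 2, and Gpx4-202 took 5.34% and 53.9%. The libraries thus put most Gpx4 counts on different transcripts. In TPM of the coding transcripts alone, Gpx4 was at 158 in replicate 1 and 398 in replicate 2, far below the 1764 and 2176 TPM of the gene. On that scale, chosen after seeing the data, Gpx4 was lower than Sod1, at 541 and 515, in both libraries, and so was no longer the highest. It was also lower than Gpx1, at 349 and 521. Most of that Gpx1 level was Gpx1-202, whose annotated coding part starts after the selenocysteine codon. Gpx1-201, whose coding part includes the codon, was at 33.8 TPM in replicate 1 and 53.5 TPM in replicate 2. The coding parts of Gpx4-201 and Gpx4-202 include it too. Among coding parts with this codon, Gpx4 was thus higher than Gpx1 in both libraries.

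**Figure D2:**
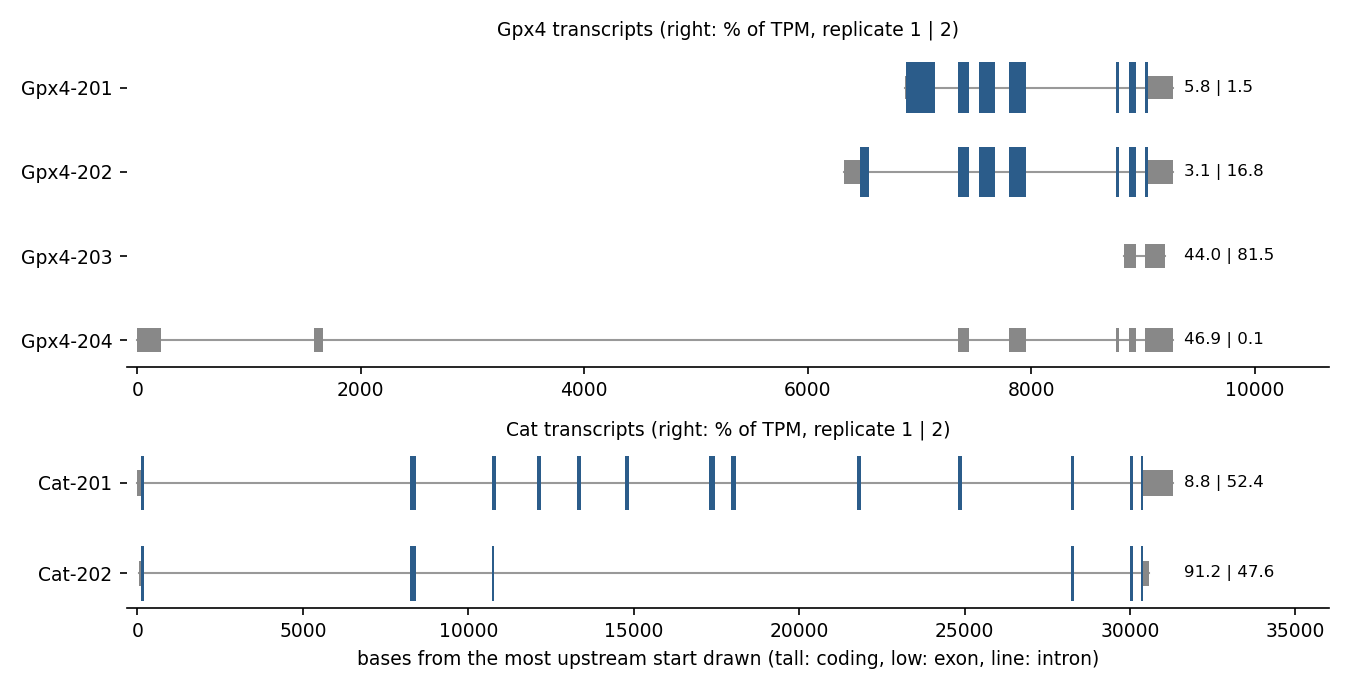
Exons of the Gpx4 and Cat transcripts that hold at least 5% of their gene in either library, by distance in bases from the most upstream start drawn. Coding parts are tall, other exon bases low and introns lines; the numbers at the right are the share of TPM in replicate 1 and replicate 2. Gpx4-204 alone starts far upstream, and Cat-202 skips the middle coding exons of Cat-201.

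Gpx4-204 starts 6322 bases before Gpx4-202 and lacks the selenocysteine codon shown above. The windows around both kinds of start are printed because the libraries differ in which one the counts were given to. They are RefSeq promoter windows on GRCm38.p6, 300 bases each, plus strand, from 250 bases before to 50 after a RefSeq start, with GATAA, the core of the sites GATA factors bind, in capitals where it occurs. The first is chr10:80046916-80047215, whose start is the first base of Gpx4-204. The second is chr10:80053315-80053614, whose start lies 77 bases inside the first exon of Gpx4-202.
Gpx4 upstream: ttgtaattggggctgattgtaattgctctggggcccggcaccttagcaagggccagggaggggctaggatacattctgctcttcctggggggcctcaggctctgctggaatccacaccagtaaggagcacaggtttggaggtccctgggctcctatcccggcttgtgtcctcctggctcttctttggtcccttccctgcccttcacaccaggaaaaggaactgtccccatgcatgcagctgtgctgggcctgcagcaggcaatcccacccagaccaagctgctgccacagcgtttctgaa
Gpx4 coding: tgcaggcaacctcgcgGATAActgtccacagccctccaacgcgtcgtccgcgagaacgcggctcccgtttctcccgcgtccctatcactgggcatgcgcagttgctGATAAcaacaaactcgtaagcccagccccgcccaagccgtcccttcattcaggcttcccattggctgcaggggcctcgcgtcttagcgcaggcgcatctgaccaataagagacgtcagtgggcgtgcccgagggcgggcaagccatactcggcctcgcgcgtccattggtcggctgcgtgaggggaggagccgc

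The upstream window held no GATAA on either strand and the coding one held 2, at -234 and -144 from the RefSeq start. GATAA occurred in 25.4% of all 32851 RefSeq promoter windows. Of the 12 windows found for the members (4 of them for Gpx4, none for Prdx6), 2 held it, both at Gpx4. These 2 windows overlap: the only GATAA of the other one, at -238 from its own start, is the -144 site of the coding window. On both strands TGACNNNGC, the core of the antioxidant response element, and TATAAA were searched as well. TGACNNNGC was present in the windows of Prdx1 and Sod1 and in 12.4% of all windows. TATAAA was present in those of Prdx1, Prdx3 and Sod1 and in 13.6% of all. No matches of different motifs overlapped in the Prdx1 window, chr4:116685349-116685648 on the plus strand, which is shown because Prdx1 is both the lowest gene here and a textbook target of NRF2. The response element core reads on the minus strand there, at -133, and TATAAA at -29, both in capitals.
Prdx1: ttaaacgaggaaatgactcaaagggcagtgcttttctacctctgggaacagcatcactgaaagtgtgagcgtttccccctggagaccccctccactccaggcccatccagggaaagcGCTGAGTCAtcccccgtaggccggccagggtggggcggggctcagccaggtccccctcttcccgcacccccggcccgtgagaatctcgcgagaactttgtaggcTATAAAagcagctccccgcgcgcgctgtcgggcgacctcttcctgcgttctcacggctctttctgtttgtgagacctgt

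Cat showed the same kind of exchange between coding models. Cat-201 encodes the full enzyme of 527 codons in 13 exons. Cat-202 has 779 bases and 6 exons and lacks coding bases 295 to 1347 of Cat-201, or 1053 of 1581. Cat-202 held 91.2% of Cat TPM in replicate 1 and 47.6% in replicate 2, and 72.7% and 18.7% of the counts. The full form was at 17.7 TPM in replicate 1 and 99.6 TPM in replicate 2, while the gene was at 202 and 190 TPM. The steady gene level in TPM thus joins a low and a high level of the full transcript.

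Prdx2 had another leading transcript in each library by TPM, but not by counts. Prdx2-205, which retains an intron and lacks the cysteine codon, held 58.4% of its TPM in replicate 1 and 0% in replicate 2. Prdx2-204, a coding model whose annotated end is open at coding base 440, held 4.29% and 47.5%. Prdx2-208, the principal form with all 198 codons, held 24.7% and 40.7%, and Prdx2-202, with the same coding length, 1.43% and 6.63%. In counts Prdx2-208 led in both libraries, with 37.9% in replicate 1 and 47.3% in replicate 2; Prdx2-205 took 35.1% and 0%, and Prdx2-204 4.34% and 36.2%. Transcripts with a complete coding sequence came to 36.5 TPM in replicate 1 and 97.5 TPM in replicate 2.

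Prdx1, with few reads, changed its leading model in TPM as well. Prdx1-202 held 51.1% in replicate 1 and 22.7% in replicate 2, and Prdx1-204, the principal form, 48.9% and 13.6%. Both encode all 199 codons. Prdx1-205, whose coding sequence is open at base 509, held 0% and 63.7%. Its share in replicate 2 came from 93.5 counts. Prdx1-204 had the most counts in both libraries, 73.8% in replicate 1 and 39.1% in replicate 2, the second nearly level with the 39.0% of Prdx1-205.

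Prdx6 mixed one coding form with several noncoding ones. Prdx6-202, the principal form, held 40.1% and 50.3%. The processed transcripts Prdx6-206, Prdx6-205 and Prdx6-207 held 39.0%, 13.6% and 1.14% in replicate 1, against 11.5%, 12.5% and 18.5% in replicate 2. In counts the principal form led in both libraries, with 65.4% and 72.1%.

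In Gpx1 and Prdx5 the leading model by TPM was the same in both libraries and was not the principal one. Gpx1-202 held 90.1% and 88.8% of Gpx1 TPM. Its exons include the selenocysteine codon, but its annotated coding part lacks bases 1 to 168 of the principal coding sequence and so starts after that codon. Gpx1-201, the principal form, held 9.66% and 10.2%. Prdx5-204, which lacks coding bases 295 to 426 but keeps the cysteine codon, held 78.4% and 62.6%. Prdx5-201, the principal form, held 21.2% and 37.0%. In counts Prdx5-204 led in replicate 1, with 53.2% against 45.2% for Prdx5-201, and Prdx5-201 in replicate 2, with 64.8% against 34.2%.

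Prdx3, Sod1 and Prdx4 leave no such question. Prdx3 and Sod1 have a single deposited transcript. Prdx4-201 held 100% and 97.0% of Prdx4. Over the family, 45 transcripts were listed, 24 held at least 5% of their gene in either library, and the leading transcript was the same in both libraries for 6 of the 10 genes by TPM and for 7 by counts, of which 5 were in both sets. Models with shared exons compete for the same reads in such estimates. The part of read assignment in the shifts was not tested.

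**Figure D3:**
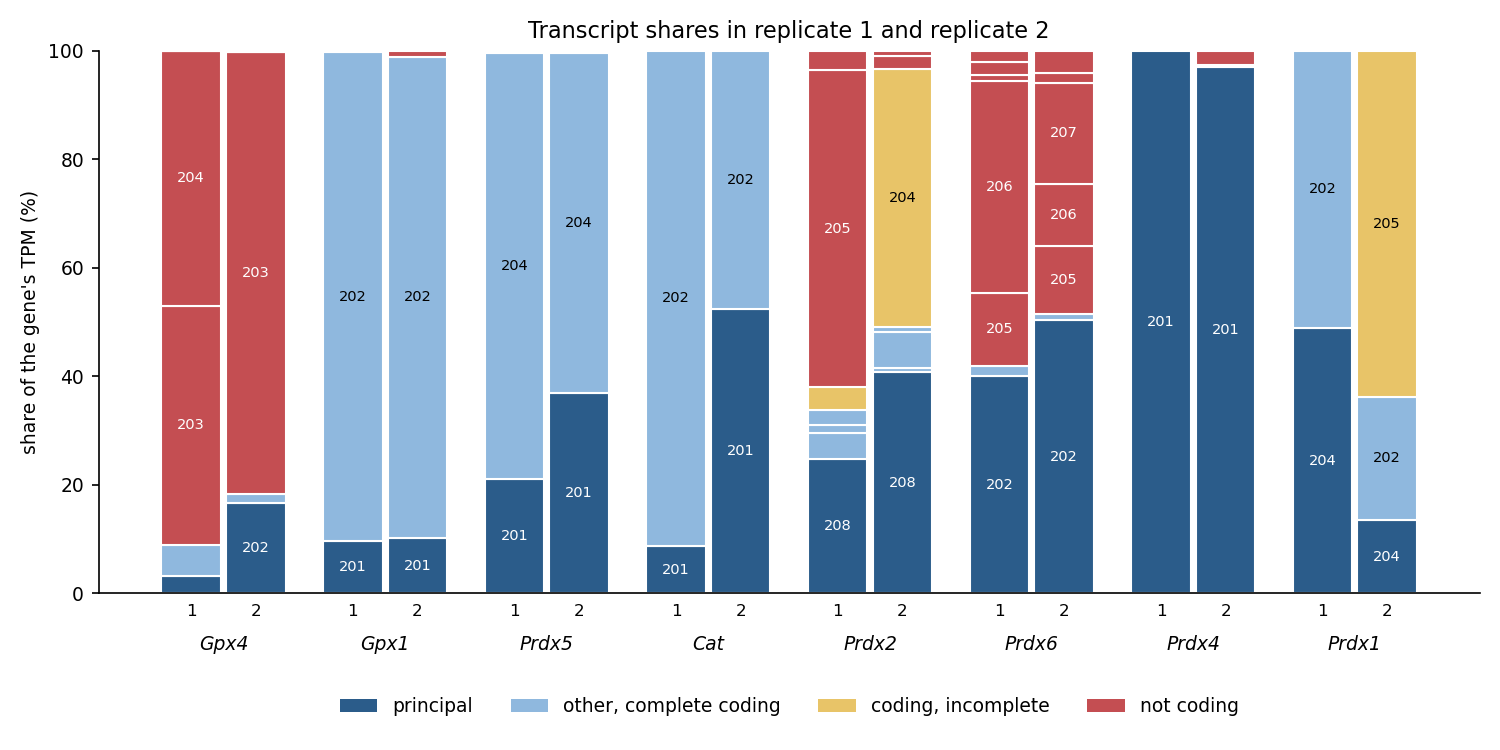
Share of each gene's TPM held by its transcripts in replicate 1 (left bar of each pair) and replicate 2 (right bar), for the 8 genes with more than 1 transcript, with the transcript number inside bars of at least 8%. The principal form is dark blue, other complete coding forms light blue, coding forms with an open end yellow and noncoding forms red. The leading transcript differs between the bars of Gpx4, Cat, Prdx2 and Prdx1.

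The libraries differed in most of these genes by more than counting error, and about as often as other genes did. Counts were compared by an exact two-sided binomial test against TMM-scaled library sizes, with Benjamini-Hochberg adjustment over 11229 genes, and calls needed a fold of 1.5 or more besides an adjusted p below 0.05. This compares the libraries, not conditions. It called 5 of the 10 genes, 1 higher in replicate 1 and 4 higher in replicate 2, while it called 41.5% of all genes tested (18.7% higher in replicate 1 and 22.8% higher in replicate 2). The median size of the log2 difference was 0.61 over the 10 genes and 0.54 over all tested.

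Prdx3 was the gene higher in replicate 1, with 1709 counts there and 1049 in the deeper replicate 2. Its log2 ratio of replicate 1 over replicate 2 was 1.46, with a 95% Clopper-Pearson interval of 1.35 to 1.58 and an adjusted p of 4.7e-152 (exact binomial test). Prdx2 went the other way, with 2207 and 9487 counts and a log2 ratio of -1.35 (-1.41 to -1.28). Prdx4 had 590 and 2245 counts and a ratio of -1.17 (-1.30 to -1.04). The shallower library thus held more Prdx3 reads and far fewer of Prdx2 and Prdx4. These intervals cover counting error only.

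Cat had a ratio of -0.99 (-1.04 to -0.95) in counts, but 0.08 in TPM, where the shift to the longer transcript offsets the larger count. Gpx1 had 7118 and 18952 counts and a ratio of -0.65 (-0.69 to -0.61). Its ratio is the smallest of the 5 called. Gpx4 had 25630 and 29546 counts and a ratio of 0.55 (0.53 to 0.58), just short of the 1.5-fold limit, yet -0.30 in TPM and -1.33 in TPM of complete coding transcripts. Its direction between the libraries therefore depends on the measure.

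The other 4 genes were not called. Sod1 had 8223 and 13728 counts and a ratio of 0.02 (-0.02 to 0.06), with an adjusted p of 0.39 in the exact binomial test. It was the gene most alike in the libraries. Prdx6 was at 0.12 (0.07 to 0.17) and Prdx5 at -0.29 (-0.35 to -0.23). Prdx1 was at -0.57 (-0.94 to -0.23), an interval that spans the limit of the call.

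**Figure D4:**
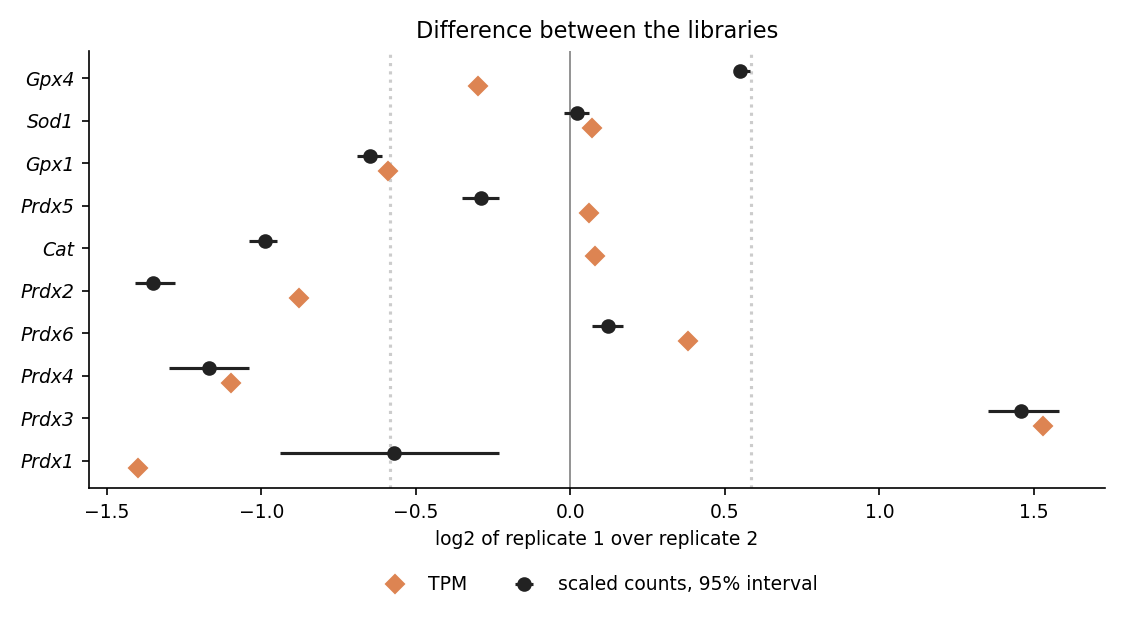
Log2 ratio of replicate 1 over replicate 2 for each gene, from scaled counts with 95% Clopper-Pearson intervals (circles) and from TPM + 0.1 (diamonds). Dotted lines mark a fold of 1.5. Prdx3 lies at 1.46 and Prdx2 at -1.35 in counts, and the circle and diamond of Gpx4, Cat and Prdx5 fall on opposite sides of 0.

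Markers of the erythroid line moved between the libraries too. All 12 erythroid markers were expressed, and 9 of them were called, 2 higher in replicate 1 and 7 higher in replicate 2, against 18.7% and 22.8% of all genes tested. Their levels summed to 33302 TPM in replicate 1, against 84567 TPM in replicate 2. Hbb-bs, an adult beta-globin gene that shares reads with its near copy Hbb-bt, was at 13158 and 49652 TPM. Without the 4 globin genes the other 8 summed to 3069 and 3935 TPM, and 6 of these were called, 2 higher in replicate 1 and 4 higher in replicate 2. Klf1, an erythroid transcription factor, was at 1422 and 754 TPM, whereas Gata1 was at 1132 and 2656 TPM. The higher sum without globins in replicate 2 rests on Gata1. The remaining markers other than globins together had less TPM in replicate 2 than in replicate 1. Gata1 reads may come from the fusion gene in this Gata1-null line, which was not tested. The part of the erythroid markers in the differences of the peroxide genes was not tested. Fewer cells of a stage and less RNA per cell cannot be told apart in bulk RNA.

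Markers of other blood cells were few. Of 10 granulocyte and macrophage markers 2 were expressed, with a summed level of 24.1 TPM in replicate 1 and 21.2 TPM in replicate 2, nearly all of it Spi1. The defining genes Elane, Ctsg, Itgam and Lyz2 were at 0 counts in both libraries. None of 8 lymphoid markers reached 1 TPM in both, with sums of 0.640 and 1.56 TPM and Pax5 at 0 counts. Of 8 megakaryocyte markers 4 were expressed, summing to 68.9 and 82.8 TPM, most of it from Gp1ba, at 47.7 TPM in replicate 1 and 56.8 TPM in replicate 2, and Fli1, at 13.5 and 16.8 TPM. Gp1bb and Ppbp were at 0 counts.

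The thioredoxin system recharges the 2-cysteine peroxiredoxins, and 10 of its 12 listed genes were expressed. Txn2, the mitochondrial thioredoxin, was at 494 TPM in replicate 1 and 298 TPM in replicate 2. Txn1, the cytosolic form, was at 5.63 and 14.0 TPM, so the mitochondrial form was higher in both, with a log2 ratio of Txn1 over Txn2 of -5.41 ± 1.44 (SD, n = 2). Cytosolic Prdx1 and Txn1 were thus both low in cells with much Prdx2. The only copy of Txn1 in M21 had 0 counts in both libraries. As for Prdx1, reads left out because they matched too many places cannot be seen. Their part in the low Txn1 level was not tested.

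Txnrd1 reduces cytosolic thioredoxin and was at 104 TPM in replicate 1 and 60.4 TPM in replicate 2. Txnrd2, the mitochondrial form, was at 11.8 and 33.3 TPM, and the pair was not apart by TPM, with log2 ratios of 3.13 and 0.86, but was in CPM, at 3.73. Over all 13 pairs of genes compared in this way, 9 were apart by TPM. Txnl1, a thioredoxin-like protein of the proteasome, was at 74.9 and 75.5 TPM, and Sesn3, a sestrin, at 0.02 and 0.01 TPM. Of 11 genes tested 6 were called between the libraries, against 41.5% of all genes. Txnrd1, Txnrd3 and Txndc17 were higher in replicate 1, by 1.63, 1.61 and 1.51-fold in scaled counts. Txn1, Sesn1 and Txnip, an inhibitor of thioredoxin, were higher in replicate 2, by 2.60, 1.79 and 1.79-fold. In TPM Txnip went the other way, at 13.9 in replicate 1 and 12.1 in replicate 2.

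Glutathione feeds the glutathione peroxidases and Prdx6, and 10 of 13 genes of its synthesis and use were expressed. Glrx5, a mitochondrial glutaredoxin needed for iron-sulfur clusters and heme, was the highest, at 1771 TPM in replicate 1 and 1345 TPM in replicate 2. Gclm, the modifier subunit of the enzyme that starts glutathione synthesis, was at 1498 and 518 TPM, far above its catalytic partner Gclc at 45.4 and 32.2 TPM. The log2 ratio of Gclc over Gclm was -4.52 ± 0.73 (SD, n = 2). This gap depends on length too: in CPM it was -2.33, still apart by the rule. Glrx2 was at 204 and 139 TPM and Glrx3 at 50.05 and 47.4 TPM.

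Of 11 genes of this list tested, 3 were called, against 41.5% of all genes. Gclm and Gsr, the reductase that regenerates glutathione, were higher in replicate 1, by 2.78 and 1.60-fold in scaled counts. Gstp1, a transferase, was higher in replicate 2, by 2.22-fold. Slc7a11, the cystine importer that supplies glutathione synthesis in many cells, had 0 and 3 counts, and the microsomal transferase Mgst1 had 0 in both.

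The remaining peroxidases were missing. Gpx2, Gpx5, Gpx6, Gpx7, Gpx8 and extracellular Sod3 had 0 counts in both libraries, which allows at most the limit of 3 counts, and plasma Gpx3 had 0 and 2. Only Sod2 and Ccs of the 9 genes listed were expressed. Ccs was called, 4.46-fold higher in replicate 2 in scaled counts, whereas its client Sod1 was not. Among the glutathione peroxidases listed, only Gpx1 and Gpx4 reached 1 TPM.

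Selenoprotein synthesis, needed to read UGA as selenocysteine in Gpx1 and Gpx4, was expressed in 7 of 7 genes listed. Sephs2, which makes the selenium donor and is itself a selenoprotein, was at 128 TPM in replicate 1 and 69.0 TPM in replicate 2. Pstk, the kinase of the transfer RNA, was at 67.9 and 46.1 TPM. Trnau1ap, which binds that RNA, was at 17.6 and 54.3 TPM, and Eefsec, the elongation factor, at 25.5 and 20.6 TPM. Sephs2 was called higher in replicate 1, by 1.77-fold in scaled counts, and Trnau1ap higher in replicate 2, by 2.63-fold. These were the 2 of 7 genes called, against 41.5% of all genes.

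NRF2 (Nfe2l2) and its rival BACH1 set the level of many antioxidant genes, and 9 of the 10 genes of this axis were expressed. The ferritin genes Ftl1, at 18993 and 14269 TPM, and Fth1, at 18292 and 10353 TPM, were the highest; ferritin genes have many processed copies, so their counts are uncertain. Mafk, a small partner of both factors, was at 205 and 171 TPM and Mafg at 73.2 and 68.9 TPM. Nfe2l2 itself was at 8.65 TPM in replicate 1 and 17.4 TPM in replicate 2. Nqo1, a target often used to read NRF2 activity, was at 0.30 and 0.42 TPM.

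In this list 3 of 10 genes were called, against 41.5% of all genes. Fth1 was called higher in replicate 1, by 1.69-fold in scaled counts. Nfe2l2 and Hmox1, heme oxygenase, were called higher in replicate 2, by 2.04 and 1.62-fold. Known target genes thus lay at very different levels in the same libraries, with Gclm and ferritin high and Nqo1, Prdx1 and Slc7a11 low.

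NADPH drives both the thioredoxin and the glutathione branch, and 8 of 9 genes of its supply were expressed. Tkt, transketolase, was at 699 TPM in replicate 1 and 1613 TPM in replicate 2, and Pgls at 376 and 357 TPM. Taldo1, transaldolase, was at 34.3 and 315 TPM, and Pgd, which yields NADPH directly, at 114 and 123 TPM. Taldo1, Tkt and Pgd were the 3 of 9 genes called, all higher in replicate 2 (22.8% of all genes were), by 9.87, 2.43 and 1.54-fold in scaled counts. G6pdx, the first enzyme of the pathway, was at 8.36 and 11.4 TPM.

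**Figure D5:**
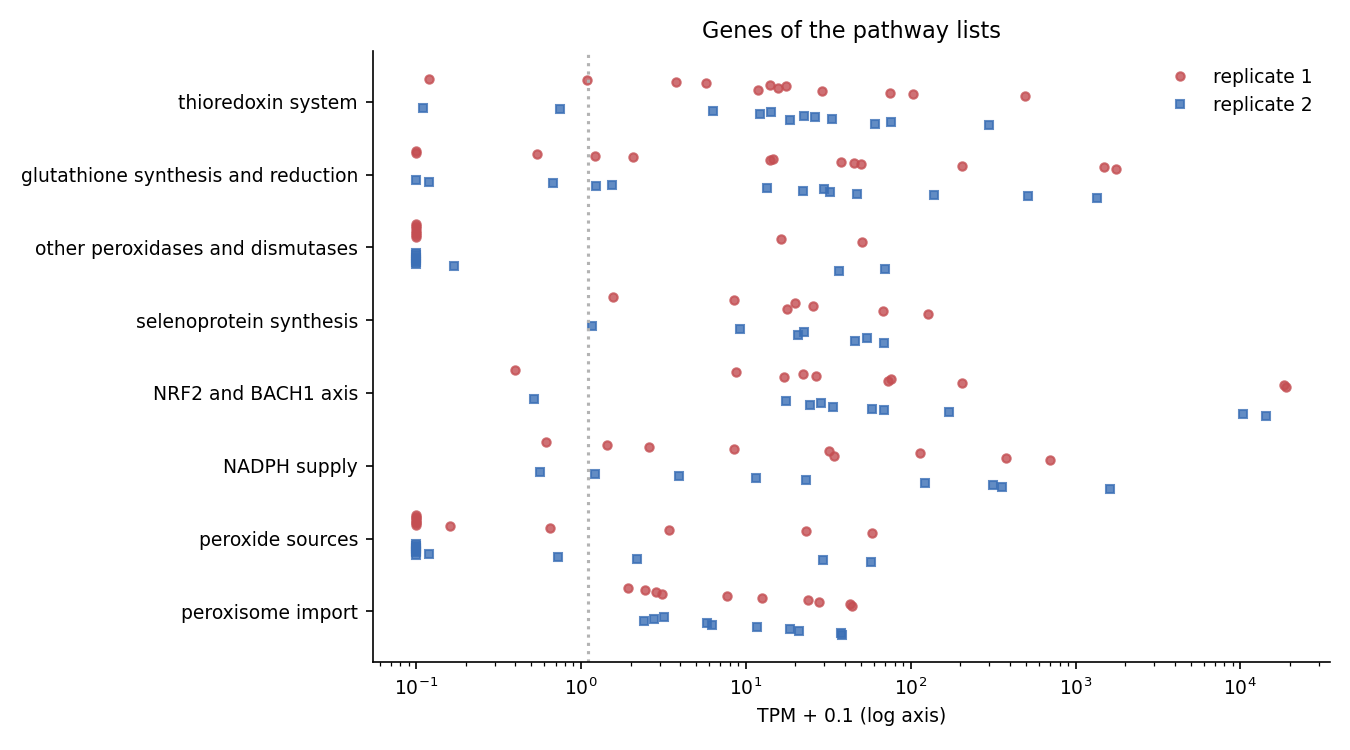
TPM + 0.1 of every measured gene in the 8 pathway lists, on a log axis, in replicate 1 (circles) and replicate 2 (squares). The dotted line marks 1 TPM. Of 82 genes 59 were expressed in both libraries, and the points at the left edge are genes at or near 0, most of them other peroxidases and oxidases.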

How the data were processed

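The 2 libraries of one condition were analysed, numbered as in the labels. Each was quantified on its own, and the columns have RSEM's names, per the file headers; the build is mm10, per the labels, and the annotation GENCODE M4, per the deposited notes. The aligner is not given in the sources used here. The deposited expected counts are estimated fragments that need not be whole, the deposited TPM and FPKM divide them by effective length, and the deposited isoform percent gives how much of a gene's TPM each transcript holds. The deposited posterior SD of a count was used as a score of shared reads. The deposited interval bounds of TPM, a signal unit, were not reported.

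Symbols, coordinates and transcript types came from GENCODE M21 on GRCm38 by identifier (42462 of 43346 genes). Rows that name no gene were left out (2 counts of replicate 1, or 5.2e-06% of its total, and 0 of replicate 2). Expected counts were rounded for an exact binomial test (scipy 1.17.1) against TMM sizes (edgeR 4.0.16), where both libraries together held 10 counts or more, with 0.5 added for folds. A single group leaves no contrast for a replicated model. The test was checked on simulated counts, with an outcome not given here. It covers counting error only, and with no fold minimum it called 73.5% of all genes tested. With 2 values per group no permutation test reaches 0.05. Copies were sought with BLAST 2.17.0. Deposited transcript lengths equalled those of M21 for the principal forms except Sod1, and windows were printed from M21 and RefSeq. Replicate 2 was deeper, so low genes are more precise in it.

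The genes, lists, pairs and tests were chosen with earlier results of these data known. Named are all 10 genes, their transcripts of at least 5%, both genes of each pair and copies with at least 1 count. Of each list, the 4 highest, up to 3 not detected and every called gene are named; markers, Glrx2, G6pdx, Nqo1 and a few others were named after their values were seen. A few list genes are not reported here by name. Alternatives were FPKM, CPM, other thresholds, size factors (DESeq2 1.42.0) and pseudocounts.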

Additional observations from a re-analysis of the deposited data

How the results depend on the processing

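No paired analysis was possible because there is a single group, so replicate numbers pair nothing. The counts of genes expressed (10) and at 50 TPM or more (7) stayed within 1.5 times under all settings tried. The 2 neighbouring steps apart became 1 with CPM and 1 per kilobase of the principal transcript. The 5 calls became 9 with no fold minimum and 3 at a fold of at least 2, and the 4663 calls over all genes became 8256 and 2430. Under DESeq2 size factors, total counts with or without globins, other count filters and TPM or length scales, the number of called members was 4 to 6. Prdx1 gained a call with total counts (-0.69) and with total counts without globins (-0.71), and passed 1.5-fold, untested, per kilobase of the principal transcript (-0.70) and in TPM (-1.40 and -1.12 with pseudocounts of 0.1 and 1). Gpx1 fell short in TPM of complete coding transcripts (-0.58). For Cat the log2 ratio of replicate 1 over replicate 2 (-0.99) turned to 0.08 in TPM with either pseudocount and to 0.09 in TPM of complete coding transcripts, and for Gpx4 (0.55) to -1.33 in the last. Those TPM depend on which transcripts took the counts; the cause of that was not tested. The scale per kilobase of the principal transcript and that of complete coding transcripts were chosen after seeing the data. With 2 libraries, leaving out 1 always moves a mean by the same part of its SD. It moved 3 of the 10 mean levels by over 1.5 times downwards: Prdx1 (4.06) to 5.93 without replicate 1 or 2.19 without replicate 2, Prdx3 (28.4) to 14.6 or 42.2, and Prdx4 (36.2) to 49.4 or 23.0 TPM. It gives no value for a difference between libraries or for a step in the order. Depth limits Prdx1 most, with 95 counts in replicate 1.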

Other observations

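Catalase works in peroxisomes, and the import machinery that would bring it there was expressed in all 10 genes listed, at moderate levels. Pex6 was at 44.1 TPM in replicate 1 and 38.1 TPM in replicate 2, and Pex14, a docking protein, at 42.6 and 37.9 TPM. Pex5, the import receptor that carries catalase, was at 27.7 and 20.8 TPM, and Pex10, a ring protein of the export step, at 23.8 and 18.4 TPM. Of the list, 1 gene was called between the libraries: Pex2, 2.06-fold higher in replicate 2 in scaled counts by the exact binomial test, against 41.5% of all genes.

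Most genes of a chosen list of peroxide sources were not expressed. Of 14 genes listed 12 were measured, and 3 of these were expressed. The list leaves out Sod1 and Sod2, which also make peroxide and were both expressed. Cyba, the p22phox subunit of NADPH oxidases, was at 58.2 TPM in replicate 1 and 57.5 TPM in replicate 2, but its catalytic partner Cybb had 0 and 1 counts, and Nox1, Duox1 and Duox2 had 0 in both. Ero1l, the oxidase of the endoplasmic reticulum whose peroxide Prdx4 consumes, was at 23.2 and 29.2 TPM, beside 23.0 and 49.4 TPM for Prdx4. Its relative Ero1lb was at 0.55 and 0.62 TPM.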
